A study of Rattus norvegicus with 10 samples.

Results

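The genes described here are 52 genes of skeletal muscle, chosen by name: the myosin, troponin, tropomyosin and actin proteins of the sarcomere, the proteins that release and take up calcium, enzymes of muscle energy supply and the regulators of the muscle lineage. A gene was read through the probe sets to which the platform annotation gives that symbol alone, and the brightest probe set (highest mean signal over the arrays) stood for it. Of the 52 genes, 50 had such a probe set, among 10411 genes named in this way on the array. Actc1, the cardiac alpha-actin, had none because its probe sets also name Acta2, and Myot had none. The 50 genes had 83 probe sets in all, and 12 genes had several.

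Each sample was RNA of whole mammary gland from female SD rats on postnatal day 21, at weaning. Both groups had the purified AIN-93G diet from gestation day 4 to weaning, with casein as its protein in the casein group and soy protein isolate in the soy group. There were 5 arrays for each diet, 1 array per sample, named here by diet and by the number in the sample's label. According to the labelling protocol several targets were prepared per RNA pool, so an array may or may not stand for 1 animal. The p-values therefore describe only how these samples vary, and part of that may be technical. No litter, dam or batch is labelled.

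The sarcomere is the contractile unit of striated muscle. Thick filaments of myosin pull on thin filaments of actin, and troponin and tropomyosin on the thin filament open this contact when calcium leaves the sarcoplasmic reticulum. Fast and slow fibres build the same structure from different genes, so that troponin I is Tnni2 in fast and Tnni1 in slow fibres, and embryonic and perinatal myosins come before the adult ones. Striated muscle is not a tissue of the mammary gland itself.

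The start regions of 5 of these genes are shown because their levels differed from each other across the arrays (below): the skeletal actin Acta1, the fast myosin heavy chains Myh4 (type IIb) and Myh2 (type IIa), the embryonic Myh3 and the slow troponin T gene Tnnt1. Each is the 250 bases before the start in RefSeq, build GRCr8, written 5' to 3' on the gene's strand. Capitals mark matches to the letters CAGCTG (an E-box), CATTCC on either strand (the M-CAT motif) and TATAA on the gene's strand, and to the CArG box and the MEF2 motif, which like the E-box read the same way on both strands.
Acta1, chr19:68784195-68784444, minus strand: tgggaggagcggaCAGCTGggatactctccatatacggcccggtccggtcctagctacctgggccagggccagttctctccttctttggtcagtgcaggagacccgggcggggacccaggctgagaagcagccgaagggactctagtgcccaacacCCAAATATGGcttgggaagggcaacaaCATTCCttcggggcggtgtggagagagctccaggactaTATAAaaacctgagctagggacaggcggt
Myh4, chr10:52421898-52422147, plus strand: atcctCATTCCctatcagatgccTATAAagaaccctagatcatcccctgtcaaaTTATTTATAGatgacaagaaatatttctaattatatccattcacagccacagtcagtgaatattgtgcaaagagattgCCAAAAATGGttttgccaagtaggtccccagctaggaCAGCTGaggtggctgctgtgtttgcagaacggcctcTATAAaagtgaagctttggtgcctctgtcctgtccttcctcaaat
Myh2, chr10:52355489-52355738, plus strand: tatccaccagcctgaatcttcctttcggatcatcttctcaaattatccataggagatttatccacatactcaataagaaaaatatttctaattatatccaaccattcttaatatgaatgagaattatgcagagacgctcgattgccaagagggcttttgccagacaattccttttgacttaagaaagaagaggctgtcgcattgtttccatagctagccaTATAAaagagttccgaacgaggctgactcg
Myh3, chr10:52268935-52269184, plus strand: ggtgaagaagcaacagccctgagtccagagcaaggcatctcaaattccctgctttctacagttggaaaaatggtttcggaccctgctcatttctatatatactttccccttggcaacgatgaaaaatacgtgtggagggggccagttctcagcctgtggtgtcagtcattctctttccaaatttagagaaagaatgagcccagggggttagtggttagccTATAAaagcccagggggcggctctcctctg
Tnnt1, chr1:78348785-78349034, plus strand: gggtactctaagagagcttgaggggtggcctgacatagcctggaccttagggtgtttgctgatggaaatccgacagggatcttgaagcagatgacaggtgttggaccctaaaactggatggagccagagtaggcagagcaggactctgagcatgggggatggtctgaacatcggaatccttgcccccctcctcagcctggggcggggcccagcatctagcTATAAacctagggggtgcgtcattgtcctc

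Acta1 held an E-box, a CArG box, an M-CAT motif and TATAA. Myh4 held all of these and a MEF2 motif, while Myh2, Myh3 and Tnnt1 held TATAA alone, at bases -30 to -26. Over the 43 genes of the list with such a region, CAGCTG was present in 30.2% (11.9% of all 27457 regions), the MEF2 motif in 16.3% (3.07%), the CArG box in 9.30% (1.5%), CATTCC in 20.9% (11.8%) and TATAA in 34.9% (17.1%). No motif shares a base with another in the regions shown. A match describes the letters only, and 23 of the 43 regions lie at the outer edge of the gene's span while the others lie within it.

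Muscle transcripts were at high levels in 4 of the 10 glands, casein 6, soy 147, soy 149 and soy 157, and low in the others. All values below are log2 of the array signal (a linear intensity made with MAS5), in which 1 unit is a doubling. An array was described as holding muscle signal where the markers Myl11, Myl1 and Pvalb all lay above 7.47, the 40th percentile of the mean log2 signal of all probe sets, which is a signal of 177. Signals under it were not set against background, so differences that reach below it have no exact size. The 4 arrays were found by these values, so their muscle levels are a description and were not tested as a group. They are called the 4 muscle arrays, and their values are given in the order casein 6, soy 147, soy 149, soy 157.

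Myl11, the regulatory myosin light chain of fast fibres, was at 13.80 in casein 6, 7.47 in casein 7, 3.29 in casein 10, 3.17 in casein 18 and 3.42 in casein 20. On the soy diet it was at 12.96 (soy 147), 13.76 (soy 149), 8.14 (soy 155), 14.39 (soy 157) and 3.15 (soy 159). It was thus high in 1 casein and 3 soy glands, at an intermediate level in casein 7 and soy 155, and at the bottom of the scale in the other 4. Myl1, the essential light chain of fast fibres, was at 13.62, 8.85, 7.08, 7.44 and 7.73 in casein 6, 7, 10, 18 and 20, and at 13.01, 13.77, 8.48, 14.23 and 7.29 in soy 147, 149, 155, 157 and 159. Pvalb, parvalbumin, the calcium buffer that speeds relaxation of fast fibres, was at 13.65, 7.13, 3.46, 3.02 and 3.62 in casein and at 11.44, 13.03, 6.97, 13.65 and 3.68 in soy, with the arrays in the same order. All 3 markers had the same 4 arrays highest and casein 7 and soy 155 next, and the diets overlapped.

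Most of the list followed its markers. The same 4 arrays were the highest for 41 of the 50 genes, the 3 markers included, and the gap between the lowest of the 4 and the highest of the other 6 had a median of 3.44 and ran from 0.065 to 7.37. Over all 15866 probe sets, whether muscle genes or not, 2.68% had these 4 arrays highest. The 9 other genes were Myh1, Myh3, Myl2, Tnnt1, Tnni1, Casq2, Tpm1, Tpm2 and Tpm3. The number of the 50 genes above 7.47 was 48, 40, 43 and 41 in the 4 muscle arrays and 12 to 20 in the others. The mean over the 50 genes was 11.24, 9.49, 10.38 and 10.19 in the 4 muscle arrays, and lay between 5.80 and 6.59 elsewhere. These arrays hold whole glands, so a smaller amount of muscle tissue and less RNA per fibre cannot be told apart.

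**Figure D1:**
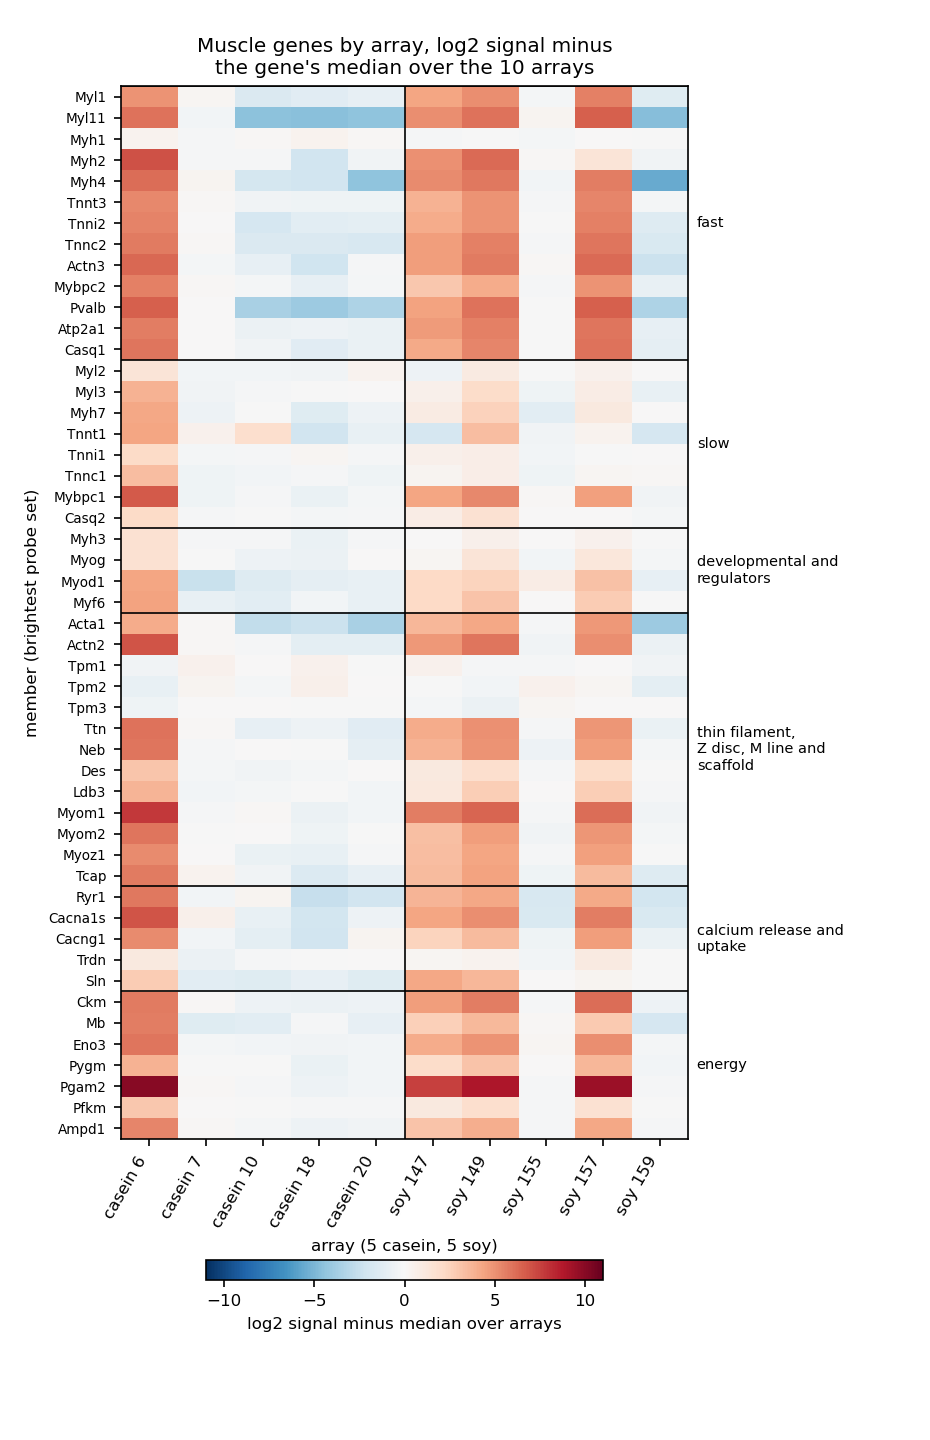
Log2 signal of the 50 muscle genes (rows, grouped by role) on the 10 arrays (columns, 5 casein and 5 soy), with each gene's median over the arrays subtracted. Casein 6, soy 147, soy 149 and soy 157 are red for most rows, while Myh1, Tpm1, Tpm2 and Tpm3 are pale throughout and the slow genes are strongest in casein 6.

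Genes of other tissues moved with these arrays in part, and their share in the muscle values was not tested. The heart markers Myh6, Myl7, Nppa, Nppb, Tnni3 and Tnnt2 did not exceed 7.47 on any array. Myh6, which had the highest single value, lay between 6.40 and 6.87 in the 4 muscle arrays and between 5.23 and 6.19 elsewhere. The mean of 7 nerve and Schwann cell genes was 9.95, 10.16, 10.90 and 10.27 in the 4 muscle arrays, against 9.63 to 9.93 in the others. Of the 7, only 2, Mbp and Prx, had the same 4 arrays highest. Cnp was lowest in casein 6 (9.57) and highest in soy 155 (10.45). The mean of 6 lymph node genes was 5.43 in casein 6 and 5.49 in soy 149, against 8.45 to 9.45 in the other 8. The mean of 7 luminal epithelial genes was 5.87 in casein 6, 6.96 in soy 149 and 5.50 in soy 159, against 7.87 to 10.32 elsewhere. The mean of 7 smooth muscle and myoepithelial genes lay between 8.80 and 9.67 and was lowest in casein 6. The mean of 5 white adipocyte genes lay between 10.80 and 11.80, the lowest in soy 147 and the highest in soy 149. The mean of 3 milk protein genes was 5.89 in casein 6 and 6.24 in soy 159, against 7.18 to 8.16 elsewhere. This came mainly from Lalba, at 6.41 and 7.12 in these arrays and 9.57 to 11.87 elsewhere. Csn2 lay between 6.58 and 7.72 and Wap between 4.26 and 6.62 on all arrays. The mean of 4 skin genes was 9.29 in soy 147 and 7.00 to 7.45 elsewhere, where Sprr1a (12.91) and Calml5 (10.24) set soy 147 apart and Krt1 (7.03) and Krt10 (6.97) did not. The 3' to 5' signal ratio of actin, a measure of RNA integrity, was 1.33, 1.43, 1.41 and 1.47 in casein 6, soy 147, soy 149 and soy 157, within the 1.22 to 1.57 of the other arrays.

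Among the genes of fast fibres, 12 of 13 had the same 4 arrays highest, which include the 3 markers that defined these arrays. Tnni2, the inhibitory troponin of fast fibres, was at 13.98, 12.55, 13.41 and 14.01 in the 4 muscle arrays, and between 6.67 and 8.52 in the others. Tnnt3, fast troponin T, was at 13.37, 11.90, 13.00 and 13.38 in the same arrays and between 7.58 and 8.19 elsewhere, and Tnnc2, fast troponin C, at 13.60, 12.48, 13.42 and 13.77 and between 6.09 and 8.01 elsewhere. Soy 157 was the highest and soy 147 the lowest of the 4 in all 3 troponins. Soy 157 lay above casein 6 by only 0.02 for Tnni2, 0.01 for Tnnt3 and 0.17 for Tnnc2. Actn3, the Z disc alpha-actinin of fast fibres, was at 13.66, 11.95, 13.05 and 13.59, and between 4.99 and 7.43 elsewhere.

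The fast calcium genes gave the same picture. Atp2a1, the calcium pump of the fast reticulum, was at 13.76, 12.85, 13.63 and 14.01 in the 4 muscle arrays, and between 7.24 and 8.19 elsewhere. Casq1, calsequestrin of fast fibres, which stores calcium, was at 12.98, 11.25, 12.49 and 13.07, and between 5.84 and 7.14 elsewhere. In casein 7 and soy 155, 14 of the 50 genes lay above all 4 of casein 10, casein 18, casein 20 and soy 159. Of these 14, 10 were fast genes, the 3 markers among them. Casein 7 and soy 155 were singled out by the markers. The share over all probe sets was not counted, so the 14 are a description. In these arrays Acta1 was at 9.78 and 9.50, Tnni2 at 8.52 and 8.46 and Myh4 at 6.68 and 6.13.

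The myosin heavy chains, the motor proteins that set fibre type, parted between the glands. Myh4, the IIb chain of the fastest fibres, was at 12.52, 11.56, 12.18 and 12.03 in the 4 muscle arrays, and between 0.85 and 6.68 elsewhere. Myh2, the IIa chain of fast oxidative fibres, was at 12.62 in casein 6, 10.66 in soy 147 and 11.85 in soy 149, but at 7.04 in soy 157, where the other arrays lay between 3.54 and 5.75. The difference between soy 157 and casein 6 was thus -0.49 for Myh4 and -5.58 for Myh2. These genes are neighbours of Myh1 on chromosome 10, which lies between them (RefSeq, build GRCr8, Myh2 at 52355739 to 52382235 and Myh4 at 52422148 to 52445296). The probe sets annotated as Myh1, the IIx chain, stood against the fast group. The brightest lay between 10.59 and 11.18 on all 10 arrays, and none of the 5 had the same 4 arrays highest. All 5 lay between 8.84 and 11.20 on every array, also in soy 159, where Myh4 was at 0.85. Whether they measure the IIx chain was not tested, so their values are not read as its level.

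**Figure D2:**
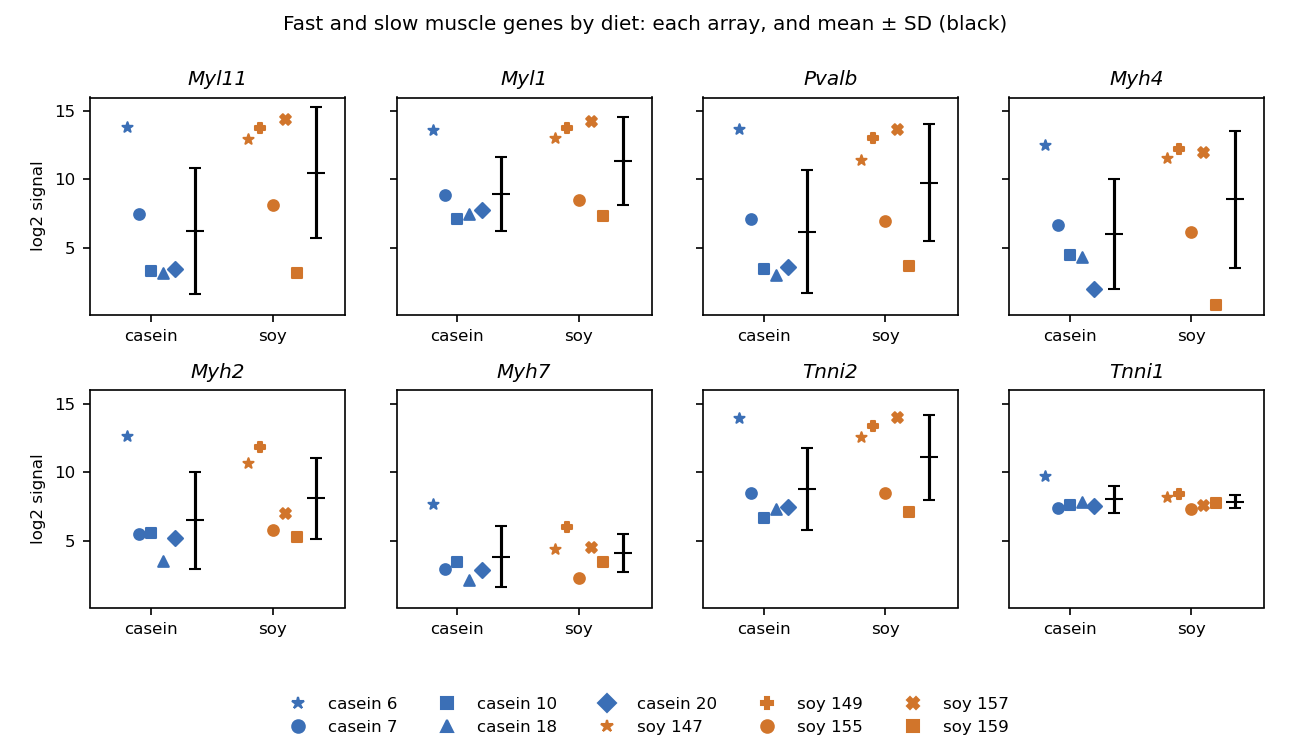
Log2 signal of 8 genes in each array of the casein (blue) and soy (orange) groups, with the mean and SD of the 5 arrays in black. Casein 6 stands with soy 147, soy 149 and soy 157 in the fast genes, soy 157 drops out of the high arrays for Myh2 at 7.04, and Myh7 and Tnni1 are highest in casein 6, at 7.72 and 9.76.

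Genes of slow fibres were highest in casein 6 in 8 of 8 cases, and 4 of the 8 had the same 4 arrays highest. Tnni1, slow troponin I, was at 9.76, 8.22, 8.43 and 7.61 in the 4 muscle arrays, where the other arrays lay between 7.33 and 7.87. Tnnc1, the troponin C of slow and heart muscle, was at 9.89, 6.83, 7.24 and 6.70 in the 4 muscle arrays, and between 6.00 and 6.63 elsewhere. Myl3, the slow essential light chain, was at 9.93, 6.68, 8.12 and 6.92 in the 4 muscle arrays, and between 5.30 and 6.17 elsewhere. For all 3 genes casein 6 was highest and soy 149 came next, while soy 157 lay within, or less than 1 unit above, the arrays without muscle signal.

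The slow myosin Myh7 was at 7.72 in casein 6 and 5.97 in soy 149 at its brightest probe set, and at 10.27 and 6.59 at its other probe set. At the latter soy 157 was at 3.79, soy 147 at 2.93 and the remaining arrays between 1.0 and 3.0. Myl2, the slow and ventricular regulatory light chain, was at 4.32 to 6.30 on all arrays at its brightest probe set. At the other it was at 10.16, 3.78, 7.29 and 2.14 in the 4 muscle arrays and between 1.54 and 3.32 elsewhere, so that casein 6 and soy 149 stood out. Tnnt1, slow troponin T, was at 7.71, 1.54, 6.75 and 3.72 in the same arrays, above 7.47 in casein 6 alone, and between 1.20 and 5.16 elsewhere. Casq2, the calsequestrin of slow and heart muscle, was at 9.95, 8.65, 9.45 and 7.88, with soy 157 within the 7.58 to 7.90 of the other arrays. Mybpc1, the slow-type myosin binding protein C, differed from these genes, with 11.71, 9.30, 10.20 and 9.44 in casein 6, soy 147, soy 149 and soy 157 and 4.22 to 5.07 elsewhere.

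Set against casein 6 gene by gene, the median difference of soy 157 was -2.65 over the 8 slow genes, of which 0 were higher, and 0.01 over the 13 fast genes, of which 8 were higher. In soy 149 the medians were -1.42 for slow and -0.41 for fast genes, and in soy 147 -2.74 and -1.44. Over all 50 genes the medians for soy 157, soy 149 and soy 147 were -1.01, -0.93 and -1.89. Casein 6 was the highest array for 36 genes and soy 157 for 10, of which 8 were fast genes. In these 8 its lead over casein 6 was often small. It was 0.008 for Pvalb, 0.010 for Tnnt3, 0.023 for Tnni2 and 0.096 for Casq1, and at most 0.61, for Myl1. By role, the mean in casein 6 was 13.21 for fast, 12.27 for energy, 11.61 for scaffold, 9.74 for calcium and 9.12 for slow genes. The medians of soy 157 against casein 6 fell in the same order, at 0.01, -0.77, -1.05, -1.30 and -2.65. The developmental and regulator genes, at 7.90 with a median of -1.11, did not follow it. The share of signal level in these differences was not tested. Each array is 1 sample, so these differences have no replicate check.

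**Figure D3:**
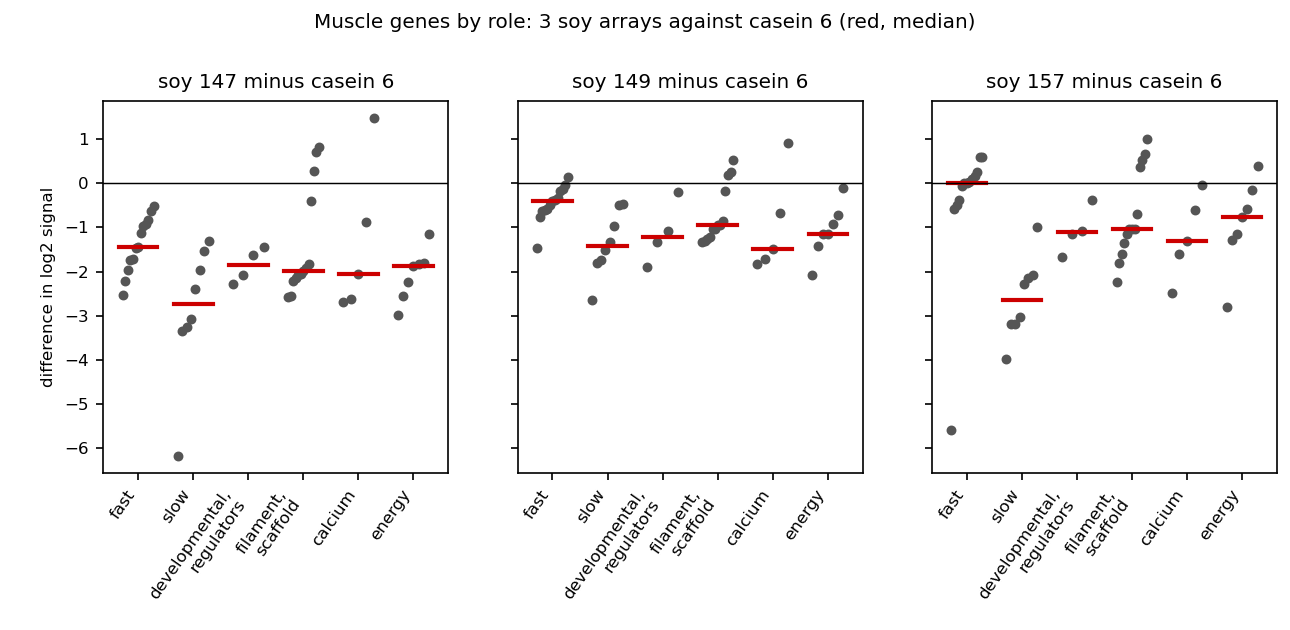
Difference in log2 signal between each of 3 soy arrays and casein 6, 1 point per gene, by role, with the median of each role in red. In soy 157 the fast genes centre on 0.01 and the slow genes on -2.65, and the low point among the fast genes is Myh2 at -5.58.

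Probe sets differ in brightness for reasons other than transcript number, so fast and slow genes were compared only as the change of their ratio between arrays, in 9 pairs of counterparts such as Tnni2 and Tnni1. In 8 pairs the counterpart was one of the 8 slow genes, and in the ninth it was Actn2, the alpha-actinin of all fibres, which is counted among the scaffold genes and set against Actn3. In soy 157 the fast over slow ratio exceeded that of casein 6 in 9 of 9 pairs, by 1.58 to 4.00 on the log2 scale with a median of 2.18. In soy 149 it did so in 9 of 9 pairs, by 0.01 to 2.47 with a median of 0.58, and in soy 147 in 7 of 9, by -0.43 to 4.70 with a median of 1.14. With signals below 7.47 set to that level the medians were 1.73 in soy 157 (8 of 9 pairs), 0.04 in soy 149 (6 of 9) and -0.13 in soy 147 (4 of 9). The direction in soy 147 thus turned with the treatment of dim slow signals, and that of soy 157 did not. The fast genes were also the brighter ones, and the share of signal level in these ratios was not tested.

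**Figure D4:**
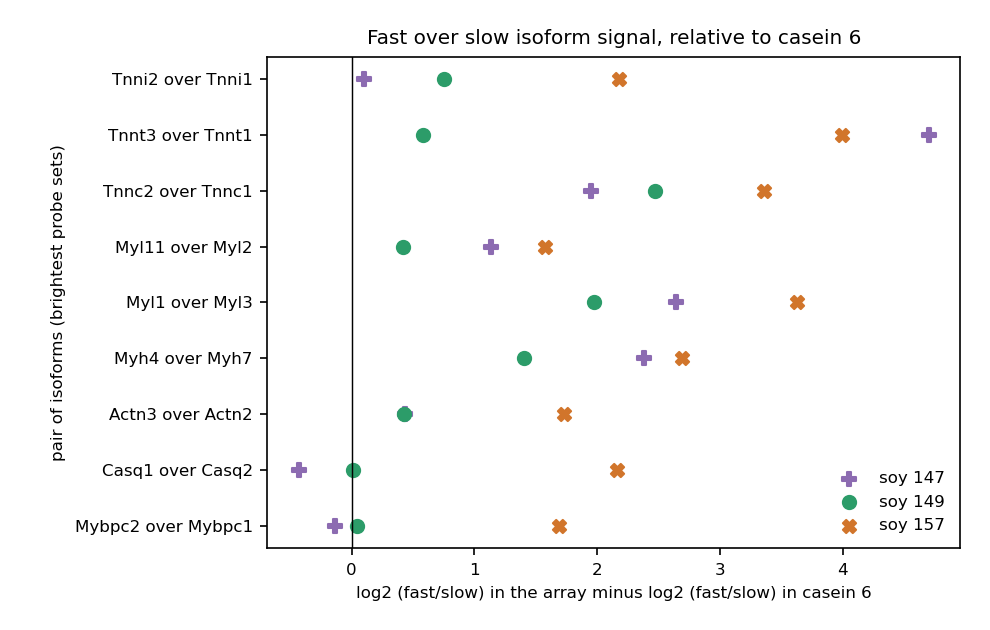
For 8 pairs of fast and slow genes and for Actn3 with the scaffold gene Actn2, the log2 ratio of the first over the second signal in soy 147, soy 149 and soy 157 minus the same ratio in casein 6. Every point of soy 157 lies right of 0, between 1.58 and 4.00, and the points of soy 149 and soy 147 reach down to 0.01 and -0.43.

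The embryonic isoform was low on all arrays, while the perinatal one exceeded 7.47 in casein 6, soy 147 and soy 149 but not in soy 157. Myh3, the embryonic myosin heavy chain, lay between 2.32 and 4.72 on all 10 arrays and exceeded 7.47 on none. The lineage regulators were higher in the 4 muscle arrays than in the others. Myog, myogenin, which drives myoblasts to differentiate, was at 8.87, 7.43, 8.66 and 8.49 in the 4 muscle arrays, and between 6.56 and 7.26 elsewhere. Myf6, the regulator most abundant in adult fibres, was at 9.81, 7.52, 8.47 and 8.13 and between 4.21 and 5.40 elsewhere. Myod1, the determination factor, was at 8.23, 6.15, 6.33 and 7.15, and between 1.49 and 4.71 elsewhere. Myh8, the perinatal myosin, which was not in the list of 52, was at 7.90, 8.33, 8.16 and 6.14 in the 4 muscle arrays, and between 1.07 and 4.58 elsewhere. It was thus highest in soy 147, where the fast genes had the lowest median relative to casein 6.

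Filament and scaffold genes followed the markers in 10 of 13 cases. Acta1, skeletal actin, was at 13.74, 13.33, 13.93 and 14.41 in the 4 muscle arrays, and between 5.62 and 9.78 elsewhere. Ttn, the giant spring titin, was at 13.31, 11.39, 12.38 and 12.17, and Neb, the thin filament ruler nebulin, at 11.33, 9.27, 10.38 and 9.98. Both were highest in casein 6, and elsewhere Ttn lay between 6.12 and 7.50 and Neb between 4.44 and 5.49. Des, desmin, the intermediate filament that links myofibrils and is also made by smooth muscle, was at 11.99, 10.00, 10.78 and 10.97, and between 8.56 and 8.97 elsewhere.

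The exceptions were the 3 tropomyosin genes, which other tissues also express. Tpm2 lay between 9.18 and 10.85 on all arrays. Tpm3 lay between 11.06 and 11.95 and was lowest in soy 149 and casein 6. Tpm1 depended on the probe set: the brightest lay between 10.22 and 11.05, but 4 of its 6 probe sets had the same 4 arrays highest. One of these was at 13.20, 12.42, 13.23 and 13.71 in the 4 muscle arrays, at 7.23 and 7.30 in casein 7 and soy 155, and between 4.68 and 4.83 in the other 4.

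All 5 genes for calcium release and uptake outside the fast and slow groups had the same 4 arrays highest, although none passed the signal filter. Ryr1, the release channel of the reticulum, was at 11.66, 9.61, 10.16 and 10.05 in the 4 muscle arrays, and between 3.29 and 6.17 elsewhere. Cacna1s, the voltage sensor that opens it, was at 9.76, 7.15, 7.94 and 8.47 and between 0.85 and 3.41 elsewhere. Sln, sarcolipin, a small inhibitor of the calcium pump, had another order. It was at 10.32 in soy 147, 9.75 in soy 149 and 8.83 in casein 6, but at 6.34 in soy 157, against 4.73 to 6.13 elsewhere, and it was the single gene of the 50 with its highest value in soy 147.

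All 7 energy genes had the same 4 arrays highest. Ckm, muscle creatine kinase, which buffers ATP, was at 13.91, 12.75, 13.81 and 14.30 in the 4 muscle arrays, and between 7.52 and 8.32 elsewhere. Eno3, the muscle enolase of glycolysis, was at 13.20, 11.38, 12.27 and 12.42, and between 6.93 and 7.47 elsewhere. Ampd1, the AMP deaminase of muscle, was at 11.83, 9.59, 10.42 and 10.69, and between 5.86 and 6.54 elsewhere. Mb, myoglobin, the oxygen store of oxidative fibres, was at 10.76 in casein 6 and 7.77, 8.69 and 7.95 in soy 147, soy 149 and soy 157, and between 3.29 and 5.20 elsewhere. The difference between soy 157 and casein 6 was -2.80 for Mb and 0.39 for Ckm.

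Of 55 further muscle genes listed for comparison, 47 had a probe set and 31 had the same 4 arrays highest. Between the diets 20 could be tested and 0 had an adjusted p under 0.05 (limma), with 1 at an unadjusted p under 0.05, Pdk4 (4.55% of all probe sets), and a median difference of 0.27. Myoz2, calsarcin-1 of the slow Z disc, was at 9.56 in casein 6, 7.79 in soy 149 and 6.25 in soy 147, but at 1.63 in soy 157, against 0.38 to 1.38 elsewhere. Cox8b, a muscle and brown fat subunit of cytochrome oxidase, was at 11.73, 9.02, 10.34 and 10.82 in casein 6, soy 147, soy 149 and soy 157, and between 2.51 and 3.86 elsewhere, while of the brown fat genes Ucp1 lay between 6.18 and 7.37 and Cidea between 8.94 and 10.37 on every array. Atp2a2, the calcium pump of slow muscle and most other tissues, lay between 10.84 and 11.36 on all arrays.

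The diet comparison asks whether soy protein changed these transcripts in the gland. No gene of the list was called different: 0 of the 28 genes that passed the signal filter had an adjusted p under 0.05 (limma, Benjamini-Hochberg over 9520 probe sets), as did 0% of all probe sets, and the adjusted p of the 28 ran from 0.98 to 0.999. At an unadjusted p under 0.05 (limma) there was 1 gene of 28, at a probe set annotated as Myh1, where the share over all probe sets was 4.55%. Of the 28, 23 were higher and 5 lower in soy. That is 82.1% higher, against 47.3% of all probe sets tested. The median difference was 1.54, against a median of -0.01 over all probe sets. Of the 28, 22 had the same 4 arrays highest, and all 22 were higher in soy, which holds 3 of these 4 arrays. These arrays entered the means that the filter used, so the 28 do not stand for the whole list. The 22 genes below the filter were not tested. The arrays of the diets did not overlap in 0 of the 28 genes and in 0.798% of all probe sets tested.

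Differences of several log2 units had errors of similar size. Myl11 was at 6.23 ± 4.60 in casein and 10.48 ± 4.78 in soy (SD, n = 5 each), a difference of 4.25 ± 2.46 (SE) with a 95% confidence interval of -1.14 to 9.64 (limma, adjusted p = 0.98). With signals below 7.47 set to that level its difference was 2.61. Acta1 was at 8.74 ± 3.12 and 11.36 ± 3.75 (SD, n = 5 each), with an interval of -1.34 to 6.59 (limma, adjusted p = 0.98). Tnni1 was at 8.03 ± 0.98 and 7.87 ± 0.45 (SD, n = 5 each), with an interval of -1.06 to 0.73 (limma, adjusted p = 0.999), and its sign turned without casein 6, to 0.27. The difference of Myh1 was -0.26 ± 0.11 (SE), with an interval of -0.50 to -0.02 (limma, adjusted p = 0.98), at a probe set that did not follow the muscle signal. Intervals of the other 27 genes included 0.

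Leaving out single arrays changed the median difference and also which genes passed the filter. Casein 6 is the only casein array among the 4 muscle arrays, so wherever it is left out the muscle arrays that remain are all soy. The counts of genes in those fits follow largely from that choice of arrays and are a description. The same holds without soy 159, whose low values of these genes otherwise lower the soy means. Without casein 6 the median over the 25 genes then tested was 2.84, and 19 of them had an unadjusted p under 0.05, against 7.39% of all probe sets. Of the 25, 0 had an adjusted p under 0.05 (limma, smallest adjusted p over all probe sets 0.667). Without soy 157 the median was 1.02, and without soy 159, the soy array with the least muscle signal, it was 2.33 with 6 of 30 genes at an unadjusted p under 0.05 (4.29% of all probe sets). Without casein 6 and soy 149, the arrays low in lymph node genes, it was 2.36 with 13 of 23 genes at an unadjusted p under 0.05 (7.21% of all).

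**Figure D5:**
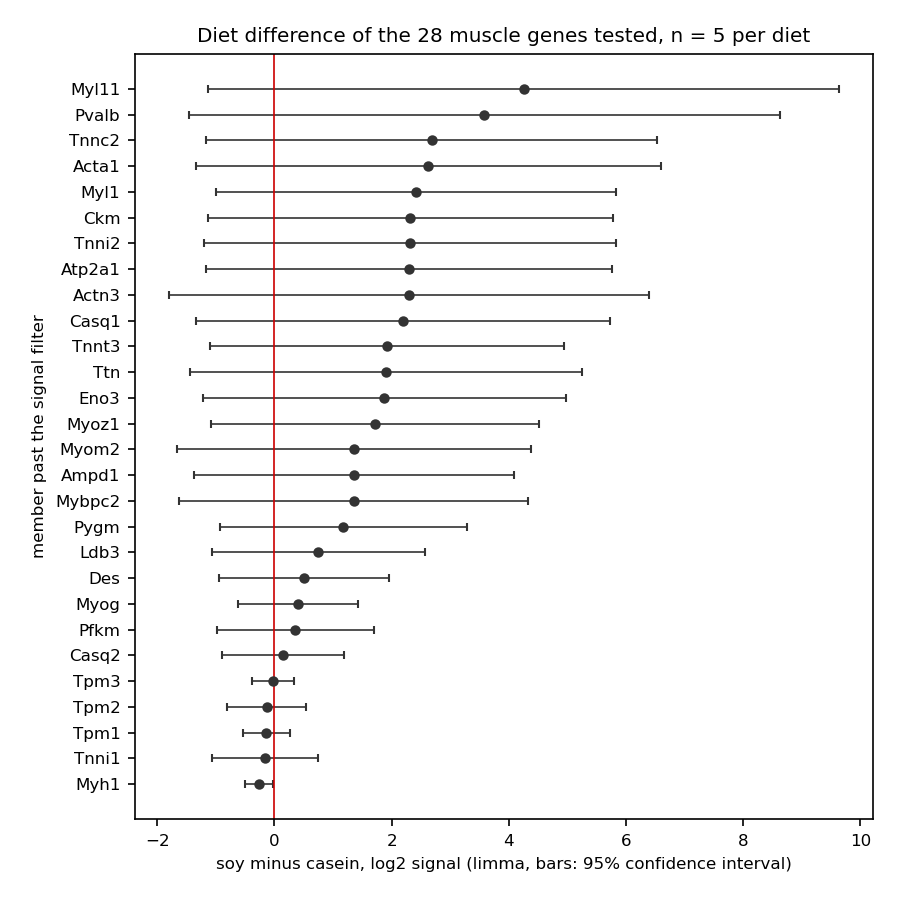
Soy minus casein difference in log2 signal for the 28 genes tested, with the 95% confidence interval from limma (n = 5 arrays per diet). Intervals of 27 genes include 0, the widest being that of Myl11 from -1.14 to 9.64, and the interval of Myh1 lies between -0.50 and -0.02.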

How the data were processed

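The deposited table holds 1 intensity (signal, linear scale) per probe set and array, which the authors computed in MAS5 (per the submitters' processing notes). Its version and settings were not given in the sources used here. The 2% trimmed mean was 500.1 on every array, so the deposited scaling was kept. Array precision is limited by the number of arrays, and detection calls were not used here.

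Values below 1 were raised to 1 before taking log2. The table has 15923 probe sets, of which 57 are controls and 12783 name 1 gene. Of these, 12748 matched the reference gene table (GRCr8), which changed 0 symbols. The test covered the 9520 probe sets with a mean log2 at or above the 40th percentile (7.47), with limma 3.58.1 in R 4.3.3 (intensity trend, two-sided, all 10 arrays). On simulated data for this comparison with 9520 probe sets, it recovered 46% of 50 changes of 1.5-fold, 72% of 50 of 2-fold and 98% of 50 of 4-fold, with 10 false calls. These shares do not apply to most of the muscle genes, whose SE reached 2.46 against a median of 0.14 over all probe sets.

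The genes and role lists were chosen with earlier results of these data known. The 30 genes named by rule are the markers, the main isoforms of each role and the regulators; Actc1 had no value. Others named bound a range or stand against their role, and Myh8, Myoz2, Cox8b and Atp2a2 come from the list of 55, chosen after their values were seen. The alternatives were quantile normalization, median centring, other filters, log2(signal + 16), no trend, array weights, averaging all probe sets of a gene, pairs or genes past or without the filter, and leaving out each array. A floor at 7.47, the widest-ranging probe set and leaving out casein 6 with soy 149 were added after seeing the data.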

Additional observations from a re-analysis of the deposited data

Results flagged for a closer look

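Casein 6 stood apart from the other 4 casein arrays in the mean over the 50 genes, at 11.24, and in 19 of the named genes. The test compares the gap between an extreme array and its neighbour with the range of its group of 5, against a critical value of 0.71, and chance passes about 1 in 20 groups. Of 60 groups looked at, 20 passed, all 20 in casein 6. They share 1 array and 1 pattern, so they are not 20 separate findings. Casein 6 was already known from the markers as the only casein array with muscle signal, and Myl1 is itself a marker. The outcome was thus largely set beforehand, and the count is a description that cannot be read against the chance rate. Among fast genes the values in casein 6 were 13.62 for Myl1, 12.62 for Myh2, 13.98 for Tnni2, 13.37 for Tnnt3, 13.60 for Tnnc2, 13.66 for Actn3, 13.76 for Atp2a1 and 12.98 for Casq1. Among slow and embryonic genes they were 7.72 for Myh7, 9.93 for Myl3, 9.76 for Tnni1, 9.89 for Tnnc1 and 4.72 for Myh3. The others were 13.91 for Ckm, 10.76 for Mb, 13.20 for Eno3, 11.83 for Ampd1, 8.83 for Sln and 11.99 for Des. No soy array passed, where the values spread over 3 high and 2 lower arrays.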

How the results depend on the processing

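No paired analysis was possible because casein and soy samples share no replicate number. The count of probe sets and of muscle genes with an adjusted p under 0.05 in limma was 0 under every alternative run. At an unadjusted p under 0.05 (limma) there were 0 to 19 muscle genes, the 19 without casein 6, the only casein muscle array. The median difference of the muscle genes stayed positive, from 1.02 to 2.84 when 1 array was left out and from 1.38 to 2.36 under the others. In soy 157 the median fast over slow ratio relative to casein 6 was 3.36 both averaging all probe sets of a gene and with the widest-ranging probe set, against 2.18. In soy 147 it was -0.16 over the 2 pairs with both genes past the filter and -0.13 with signals floored at 7.47. Of the named genes tested, 3 changed sign. The cause was not tested. Tnni1 was at 0.11 with array weights, at 0.13 without casein 6 and soy 149, and between -0.32 and 0.27 when 1 array was left out. With the mean of all probe sets Myh1 was at 0.082 and Tpm1 at 1.34. Differences that reach under a signal of 177 are limited by the missing comparison with background.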

Other observations

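Receptors of the nerve to muscle contact and genes of muscle breakdown were also on the arrays. Chrna1, a subunit of the acetylcholine receptor of muscle, was at 7.83, 7.54, 7.75 and 7.85 in the 4 muscle arrays, and between 6.89 and 7.38 elsewhere. Chrng, the fetal subunit, lay between 4.57 and 5.59 on all arrays. Trim63, a ubiquitin ligase of muscle atrophy, was at 9.07, 6.65, 7.48 and 7.42 in these arrays, and between 2.23 and 4.92 elsewhere. Fbxo32, another ligase of muscle atrophy, was at 4.37, 5.35, 3.94 and 4.10 and between 3.22 and 5.57 elsewhere. Mstn, myostatin, which limits muscle growth, was at 6.45, 5.52, 6.92 and 6.17, and between 2.89 and 3.55 elsewhere. Csrp3, a Z disc protein of slow and heart muscle, was highest in soy 149, with 9.05, 8.41, 9.71 and 7.97 in the 4 muscle arrays and 3.78 to 4.34 elsewhere. These genes were chosen from the list of 55 after their values were seen, and no test was made of them.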
